A study of Mus musculus with 2 samples.

Results

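The 10 genes described here encode core parts of the Notch pathway: the receptors Notch1, Notch2 and Notch3, the ligands Dll1, Dll3 and Jag1, the DNA-binding protein Rbpj, and the target genes Hes1, Hes5 and Hey1. They were taken as a fixed list of names out of 22367 protein-coding genes, with no cut on a measured value. Earlier results of these data were known when the list was chosen, so it is not independent of them. To each gene were given the p300 peaks whose midpoint lay in the gene body or within 500 kb of where its transcription starts, using the transcript with the most coding bases. This rule gave 44 of the 6629 peaks, or 0.664%, and no peak was given to more than 1 of the 10 genes. The peaks come from chromatin immunoprecipitation and sequencing (ChIP-seq) of p300, a co-activator found at active enhancers, in the dorsal cerebral wall of Swiss Webster mouse embryos at embryonic day 14.5. Hippocampal, hem and choroid plexus tissue had been cut away, and the tissue was frozen before fixation in formaldehyde. There was 1 p300 library and 1 input library from the same chromatin, both from untreated embryos, with no replicate, and how many embryos were pooled is not given in the sources used here. The list gives positions on the mm9 assembly but no score or read count, so the depth behind any peak is unknown, and it carries no expression values with which to check the tissue against marker genes.

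Notch receptors are activated by Delta and Jagged ligands on a neighbouring cell. Proteases then release the receptor's intracellular domain, which joins Rbpj and a Mastermind protein on DNA and recruits co-activators, p300 among them. In the embryonic cortex, Hes and Hey proteins, the basic helix-loop-helix (bHLH) repressors made in response, hold down proneural genes and keep radial glia as progenitors, while differentiating cells make Dll1.

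The p300 peaks closest to the genes lay at Notch3, Dll1, Jag1 and Hes5. The middle 240 bases of these 4 peaks are shown because they are the peaks within 15 kb of a start site. The sequences are those of the mm9 reference, plus strand, and not of the embryos sequenced. Capitals mark matches on either strand to 8 short motifs: GTGGGAA (RBPJ), CAGCTG and CATCTG (proneural bHLH factors), TAATTA (homeodomain factors), AACAATG (Sox factors), CACGTG and CACGCG (Hes and Hey factors), and the Nfi palindrome, which is TTGGC and GCCAA with any 5 bases between them.
Notch3, intron 2, chr17:32299206-32299445: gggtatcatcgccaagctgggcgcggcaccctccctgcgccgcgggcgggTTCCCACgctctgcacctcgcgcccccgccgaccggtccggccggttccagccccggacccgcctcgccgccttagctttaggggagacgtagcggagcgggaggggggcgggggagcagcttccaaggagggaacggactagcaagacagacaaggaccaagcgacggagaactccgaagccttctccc
Dll1, upstream, chr17:15517712-15517951: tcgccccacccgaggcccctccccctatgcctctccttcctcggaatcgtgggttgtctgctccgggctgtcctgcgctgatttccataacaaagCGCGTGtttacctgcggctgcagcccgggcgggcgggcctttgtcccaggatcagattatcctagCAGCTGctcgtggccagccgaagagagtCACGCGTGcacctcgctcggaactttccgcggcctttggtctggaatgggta
Jag1, intron 2, chr2:136935535-136935774: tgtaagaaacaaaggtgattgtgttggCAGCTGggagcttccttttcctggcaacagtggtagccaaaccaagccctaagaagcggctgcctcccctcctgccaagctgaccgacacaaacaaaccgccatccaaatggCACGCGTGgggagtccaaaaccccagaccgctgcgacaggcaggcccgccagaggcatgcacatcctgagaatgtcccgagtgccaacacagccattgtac
Hes5, upstream, chr4:154322897-154323136: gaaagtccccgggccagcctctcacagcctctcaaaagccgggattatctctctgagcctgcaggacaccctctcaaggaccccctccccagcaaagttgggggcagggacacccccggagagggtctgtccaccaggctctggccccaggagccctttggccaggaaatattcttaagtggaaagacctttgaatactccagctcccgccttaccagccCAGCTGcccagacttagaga
The Notch3 stretch held 1 RBPJ match. Those of Dll1 and Jag1 each held CACGCGTG, in which a CACGCG match on 1 strand overlaps one on the other, and Dll1 held 1 more CACGCG match. All but the Notch3 stretch held 1 CAGCTG match.

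Summed over the 10 genes, 44 p300 peaks lay in windows of 10 Mb together, where an even spread over the 2.56 Gb of assembled sequence would give 25.9, a ratio of 1.7. The median gene of the list had 4 peaks and the median of all protein-coding genes had 1, with quartiles of 0 and 3. More peaks than the length of the window predicts were found for 6 of the 10 genes, and for 35.2% of all protein-coding genes. Each gene was then compared with its window by a one-sided exact binomial test, adjusted by the Benjamini-Hochberg method over all 22367 genes. Of the 10 genes 1 passed at an adjusted p under 0.05, Dll1, where 4.09% of all genes did. The other 9 did not. The test compares 1 peak list with an even spread and not conditions. Peaks cluster, so its p-values are too small, and neighbouring genes share peaks: a peak of the list lay in the windows of a median of 14.5 protein-coding genes (lowest 2, highest 34).

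**Figure D1:**
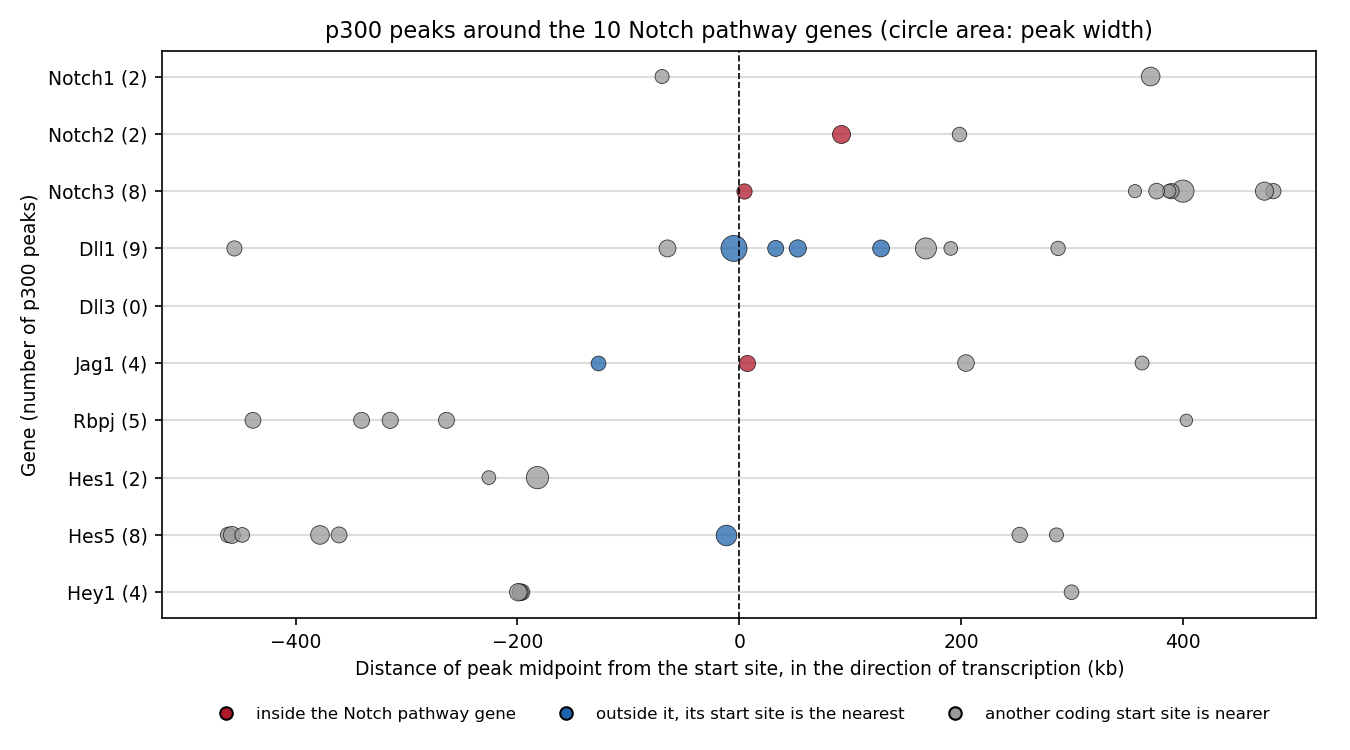
Each circle is a p300 peak, placed by the distance of its midpoint from the gene's start site in kb (negative is upstream) with an area in proportion to its width, and each row is a gene with its number of peaks. Dll1 (9 peaks) has 2 within 50 kb of its start site and 7 within 250 kb, while 7 of the 8 peaks of Notch3 lie 356.5 kb or more downstream and Dll3 has 0.

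Among the receptors, Notch3 (ENSMUSG00000038146, minus strand of chromosome 17, 32257765 to 32303825) had 8 peaks, 3.09 times the number predicted (exact Poisson 95% interval 1.33 to 6.08, counting error only), which did not pass the exact binomial test (adjusted p = 0.0869). Counts of 8 or more were found for 3 of the 10 genes (Notch3, Dll1 and Hes5) and for 6.07% of all protein-coding genes, a limit set after the counts were seen. Only 1 of them was in or near the gene. This peak, number 2691, covered 969 bp of intron 2 (of 32) from 32298842 to 32299810, with its midpoint 4.5 kb downstream of the start site. The other 7 stood 356.5 to 481.2 kb downstream of the start site. Of these, 5 were closest to Sik1, a salt-inducible kinase, and 2 to Cryaa, a lens crystallin. The count of 8 is therefore mostly a count of peaks beside other genes, and within 250 kb it was 1.

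Notch1 and Notch2 each had 2 peaks, 0.772 times the number predicted (exact Poisson 95% interval 0.0935 to 2.79). Notch1 (ENSMUSG00000026923, minus strand of chromosome 2, 26313423 to 26372183) had none in its body. One of its peaks, number 3221, lay 69.7 kb upstream of the start site used, which is 12841 bp inside the gene. It was 7.5 kb from the start site of Egfl7, a gene of endothelial cells. The other lay 370.6 kb downstream, nearest to Nacc2. For Notch2 (ENSMUSG00000027878, plus strand of chromosome 3, 97817461 to 97954290), peak 3964 covered 1346 bp of intron 11 (of 33) from 97908604 to 97909949. It was 91.8 kb from the Notch2 start site and 55.5 kb from that of Adam30. The second, 198.1 kb downstream, was 10.6 kb from Reg4. Peaks in the body of the gene were thus found for Notch2 and Notch3, and, among the other members, for Jag1. They are 3 of 10 genes, where 6.57% of all protein-coding genes had a peak in their body.

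Among the ligands, Dll1 (ENSMUSG00000014773, minus strand of chromosome 17, 15504318 to 15513836) had 9 peaks, 3.47 times the number predicted (exact Poisson 95% interval 1.59 to 6.59), and passed the exact binomial test (adjusted p = 0.0354). At least as many peaks were counted for 4.11% of all protein-coding genes. The peak next to it was the widest of the 44. This peak, number 2648, covered 2810 bp upstream of the gene from 15516427 to 15519236, with its midpoint 4.89 kb from the start site, and it overlaps an annotated exon of the non-coding gene A930024N18Rik. Downstream followed peaks 2647 (1068 bp, 32.7 kb from the start site), 2646 (1231 bp, 52.6 kb) and 2645 (1179 bp, 127.7 kb). These 4 peaks had Dll1 as their nearest protein-coding start site. As many or more were nearest to 1.89% of all protein-coding genes, a limit chosen after the counts were seen.

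Farther downstream of Dll1 were 3 peaks at 168.1, 190.5 and 287.2 kb, the first of them 1847 bp wide, which were closer to 2210404J11Rik, a protein-coding gene with a clone name. Upstream, peak 2649 lay 64.8 kb away and nearest to Fam120b. The last, 455.1 kb upstream, was 4.51 kb from Rgmb, a co-receptor for bone morphogenetic proteins. Within 50 kb of the start site Dll1 had 2 peaks, within 100 kb 4 and within 250 kb 7. In its regulatory domain, drawn from the basal domains of 5 kb upstream and 1 kb downstream out to those of the neighbouring protein-coding genes, Dll1 had 7 peaks in 0.345 Mb, a ratio of 7.84 (adjusted p = 0.00619, exact binomial test as above). The other 9 genes of the list did not pass this test, and 1.14% of all protein-coding genes passed it. With non-coding genes also allowed to bound the domains, that of Dll1 shrank to 0.0163 Mb with 1 peak and no longer passed (adjusted p = 1, the same exact test). Its window test also missed the threshold with windows of 1 Mb on each side (ratio 1.93, adjusted p = 0.269, exact binomial test) and when peaks narrower than the median were set aside (ratio 4.62, adjusted p = 0.0671, exact binomial test).

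Jag1 (ENSMUSG00000027276, minus strand of chromosome 2, 136907192 to 136942380) had 4 peaks, 1.54 times the number predicted (exact Poisson 95% interval 0.421 to 3.95). Peak 3578, which covered 1090 bp of intron 2 (of 25) from 136935110 to 136936199, was 6.72 kb downstream of the start site. Jag1 was also the nearest protein-coding gene to peak 3579, which was 127.4 kb upstream. The remaining pair lay in introns of other genes, 1 in 2210009G21Rik (204.2 kb) and 1 in Snap25 (362.9 kb), which encodes a synaptic fusion protein. A further peak, number 3580, fell outside the window at 577.6 kb and had Jag1 as its nearest protein-coding gene too.

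Dll3, a divergent ligand that does not activate Notch on neighbouring cells, had 0 peaks. Its nearest peak lay 618 kb away. The gene (ENSMUSG00000003436, minus strand of chromosome 7, 29076673 to 29087257) stands in a gene-dense stretch with 39 protein-coding start sites in its window, where the median protein-coding gene had 16. After exons and 2.5 kb around each start site were set aside, 72.7% of the window could hold a listed peak, the lowest share of the 10 genes (median of all protein-coding genes 84.1%). Notch1, with 31 such start sites and a share of 73.5%, had 2 peaks. The part of gene density in the count of Dll3 was not tested. A window without a peak was not rare, at 30.0% of protein-coding genes. Weaker p300 signal would not appear in a list of called peaks.

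Rbpj (ENSMUSG00000039191, plus strand of chromosome 5, 53947018 to 54048684), the protein through which all Notch receptors reach DNA, had 5 peaks, 1.93 times the number predicted (exact Poisson 95% interval 0.627 to 4.5). None was within 250 kb of the start site used, which lies 34436 bp inside the gene from its outermost annotated start. From that outer start the upstream peaks would be nearer. Upstream, 4 peaks lay at 264.0 to 438.4 kb from the start site used, 3 of them nearest to 1810013D10Rik and 1 in an intron of Sel1l3. Downstream, 402.8 kb away, the fifth was 5.51 kb from Stim2, a calcium sensor of the endoplasmic reticulum, and at 643 bp it was the narrowest of the 44 peaks.

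Among the target genes, Hes5 (ENSMUSG00000048001, plus strand of chromosome 4, 154335032 to 154336480) had 8 peaks, with the same ratio as Notch3 and the same exact binomial test result (adjusted p = 0.0869). Here too 1 peak was close. It was number 4627, 1757 bp wide, at 154322139 to 154323895, with its midpoint 12.0 kb upstream, and it was wider than the upper quartile of all peaks (1260 bp). No other peak lay within 250 kb of the start site. Of the rest, 5 were in introns 1 and 2 of Prdm16, 360.8 to 460.8 kb upstream of Hes5. Prdm16 encodes a transcriptional regulator of radial glia. The last 2 lay downstream, 1 in intron 1 of Ski at 252.6 kb and 1 nearest to 2610002J02Rik at 285.7 kb.

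Hes1 (ENSMUSG00000022528, plus strand of chromosome 16, 30064470 to 30067882) had 2 peaks, both upstream and both far away. None was within 100 kb of the start site or inside the gene. Both were nearest to Gm1968, a gene with a model name. With such names left out, which was decided with the data in view, Hes1 was the nearest protein-coding gene to both.

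Hey1 (ENSMUSG00000040289, minus strand of chromosome 3, 8663362 to 8667039) had 4 peaks, and 3 of them stood in a row. Numbers 3767, 3768 and 3769 were 1122, 1081 and 1272 bp wide, 196.3 to 199.3 kb upstream, in the last intron of Mrps28, a mitochondrial ribosomal protein gene. Gaps of 189 and 483 bp separated them, and with peaks less than 5 kb apart joined Hey1 had 2. The fourth, 299.3 kb downstream, was nearest to Stmn2, a gene of growing neurons. The next peak stood just beyond the limit, at 504.4 kb. It was the closest to the 500 kb limit of those left out for any of the 10 genes, and the farthest one counted was that at 481.2 kb from Notch3.

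Read by distance, a few start sites had a single p300 peak close by, while 24 of the 44 peaks lay over 250 kb away. Within 10 kb of the 10 start sites lay 3 peaks, where an even spread would give 0.518 and 10 average protein-coding genes had 0.255. Within 25 kb there were 4 peaks against 0.783 for 10 average genes, within 100 kb 9 against 3.88, and within 500 kb 44 against 23.8. By gene, the nearest peak lay under 15 kb away for Notch3, Dll1, Jag1 and Hes5, 4 of 10 genes, and for 3.87% of all protein-coding genes. It lay under 5 kb for Notch3 and Dll1, 2 of 10 genes, and for 0.782% of all. These limits were set after the distances were seen. The order then ran from Notch1 (69.7 kb) and Notch2 (91.8 kb) to Hes1, Hey1 (196 kb), Rbpj (264 kb) and Dll3. The median over the 10 genes was 80.8 kb, and over all protein-coding genes 262 kb. Peaks within 2.5 kb of a start site had been removed by the authors, so that p300 at the promoters themselves is not described by these numbers.

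**Figure D2:**
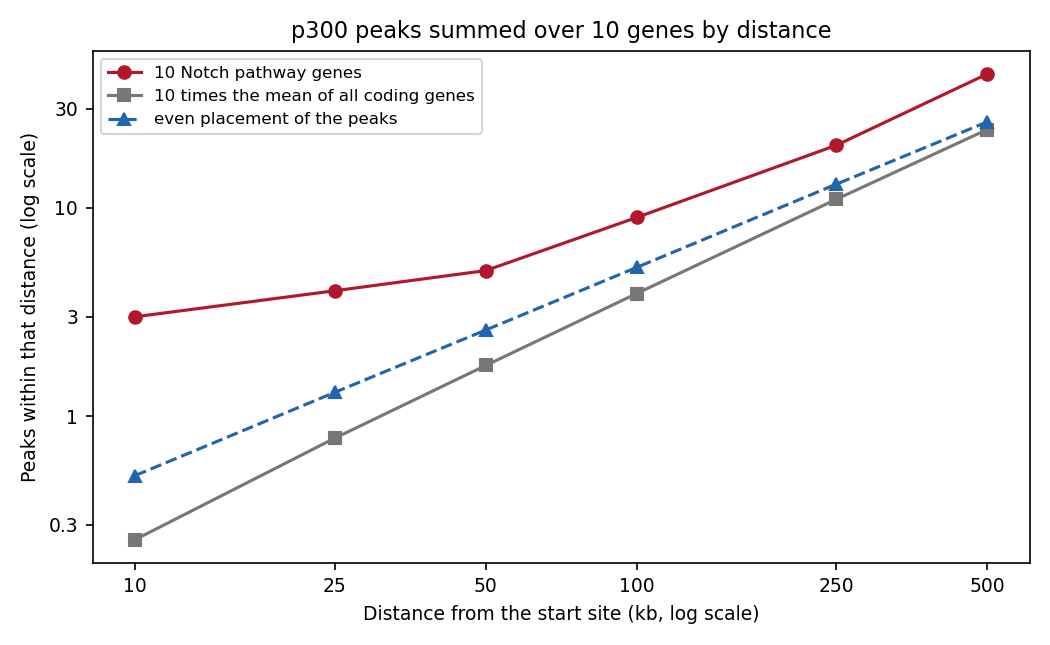
The number of p300 peaks (log scale) within a given distance of the start site in kb (log scale) is summed over the 10 Notch pathway genes, with 10 times the mean of all protein-coding genes and the number from an even spread. The red line starts at 3 peaks within 10 kb, above 0.255 and 0.518, and the lines come closer by 500 kb (44, 23.8 and 25.9).

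Most of the 44 peaks had another neighbour. A gene of the list was the nearest protein-coding gene to 8 peaks (18.2%): 4 for Dll1, 2 for Jag1 and 1 each for Notch3 and Hes5. The other 36 lay nearer to another protein-coding start site. Counting peaks at any distance, 4 of 10 genes were nearest to at least 1 peak, and 14.4% of all protein-coding genes were. By position, 3 peaks lay inside a gene of the list, 13 inside another protein-coding gene and 28 between protein-coding genes. There were 20 upstream and 24 downstream of the start sites.

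The same counts were made for 44 other genes of the pathway, for 7 proneural and neuronal bHLH factors and for 83 ribosomal protein genes. Of the other pathway genes, 2 passed the window test (4.55%), a share near the 4.09% of all protein-coding genes, and the median of the 44 was 2 peaks. They were Hes3, with 10 peaks (ratio 3.86, adjusted p = 0.0131, exact binomial test), and Hes2, with 9 (adjusted p = 0.0354, the same exact test). Their start sites are 129 kb apart and 9 of their peaks are shared. Of the 10 peaks in all, 7 were nearest to Nphp4, 2 to Gpr153 and 1 to Chd5, and neither Hes gene was the nearest to any. Both calls were lost within 250 kb (adjusted p = 0.515 for Hes3 and 0.971 for Hes2, exact binomial test) and against the density of peaks on their own chromosome (0.0627 and 0.15, the same exact test). With peaks narrower than the median set aside, each ratio was 0.77.

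The other genes with the most peaks did not pass. Maml3, a Mastermind co-activator, had 7 peaks, all 7 inside the gene, and Dlk1, an atypical ligand, had 7 (adjusted p = 0.197 for each, exact binomial test). Fbxw7, part of the ubiquitin ligase that degrades active Notch, had 5 peaks in its window, and so did Jag2. Counting peaks at any distance, Maml3 was the nearest protein-coding gene to 3, Dlk1 to 2, Fbxw7 to 5 and Jag2 to none. For Dll4, a ligand named here after its values were seen, 1 of 2 peaks lay 3.32 kb from the start site. Medians by role cover all 54 pathway genes, the 10 of the list included. The median was 3 peaks for 8 ligands, 3 for 9 target genes and 3 for 6 genes of the nuclear complex. It was 2 for 4 receptors, 3 for 9 proteases and 3 for 5 glycosyltransferases. For 9 modulators such as Numb it was 2, and for 4 ubiquitin ligases of ligand endocytosis 0.5.

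The bHLH factors, which the Hes proteins hold down, had a median of 7 peaks, and 3 of 7 passed the window test, which 4.09% of all protein-coding genes passed. Neurog2 had 16 peaks (ratio 6.18, adjusted p = 3.92e-06, exact binomial test) and Neurod6 13 (ratio 5.02, adjusted p = 0.000364, same exact test). Neurod2 passed with 10 peaks (adjusted p = 0.0131, exact test as above), and Neurog1, at 7, did not pass. The ribosomal protein genes, a housekeeping contrast, had a median of 2 peaks, and 9 of 83 passed the window test (10.8%, where 4.09% of all protein-coding genes did), next to 1 of 10 in the Notch list. On the regulatory domains 2 of 83 passed, where 1.14% of all protein-coding genes did.

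**Figure D3:**
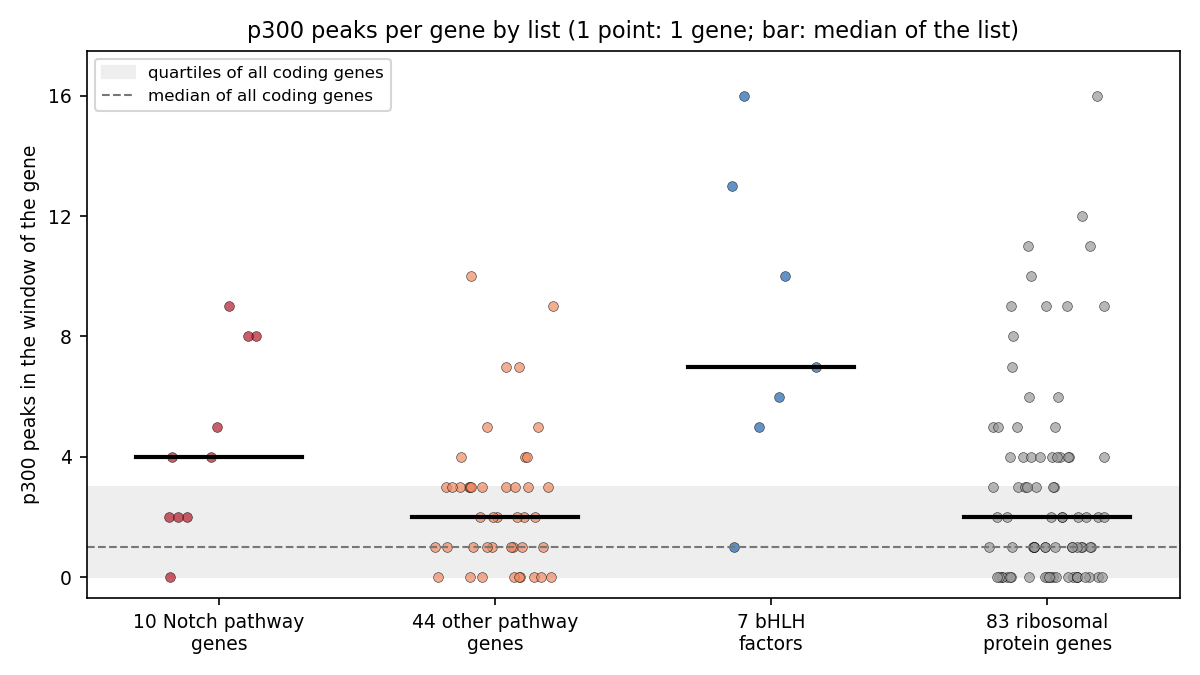
Each point is a gene, placed by the number of p300 peaks in its window, for the 10 Notch pathway genes, 44 other pathway genes, 7 bHLH factors and 83 ribosomal protein genes, with bars at the medians (4, 2, 7 and 2). The shaded band runs from 0 to 3 peaks, the quartiles of all protein-coding genes, and the dashed line is their median of 1.

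In width the 44 peaks ran from 643 to 2810 bp with a median of 1053.5 bp (95% interval from order statistics 969 to 1122), close to the 1017 bp (1010 to 1025) of all peaks. At least as wide as that median were 25 of them. Their GC content was higher. Its median was 51.4% (95% interval 49.6 to 52.5), against 45.2% (45.0 to 45.4) for all peaks, and 36 of 44 lay above the median of all. The intervals for width and GC content treat peaks as independent. Many of the 44 share a window, so these intervals may be too narrow. GC content differed by gene. The lowest of the 8 peaks of Hes5 was at 52.0%, of the 8 of Notch3 at 48.7% and of the 9 of Dll1 at 49.9%, with the highest of all 44 at 63.6% beside Rgmb. The 4 peaks of Hey1 lay between 38.3% and 45.6%. The surrounding 1 Mb differed less, with a median of 44.8% around the 44 peaks and 43.0% around all peaks. The part of the surrounding sequence in the difference was not tested.

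**Figure D4:**
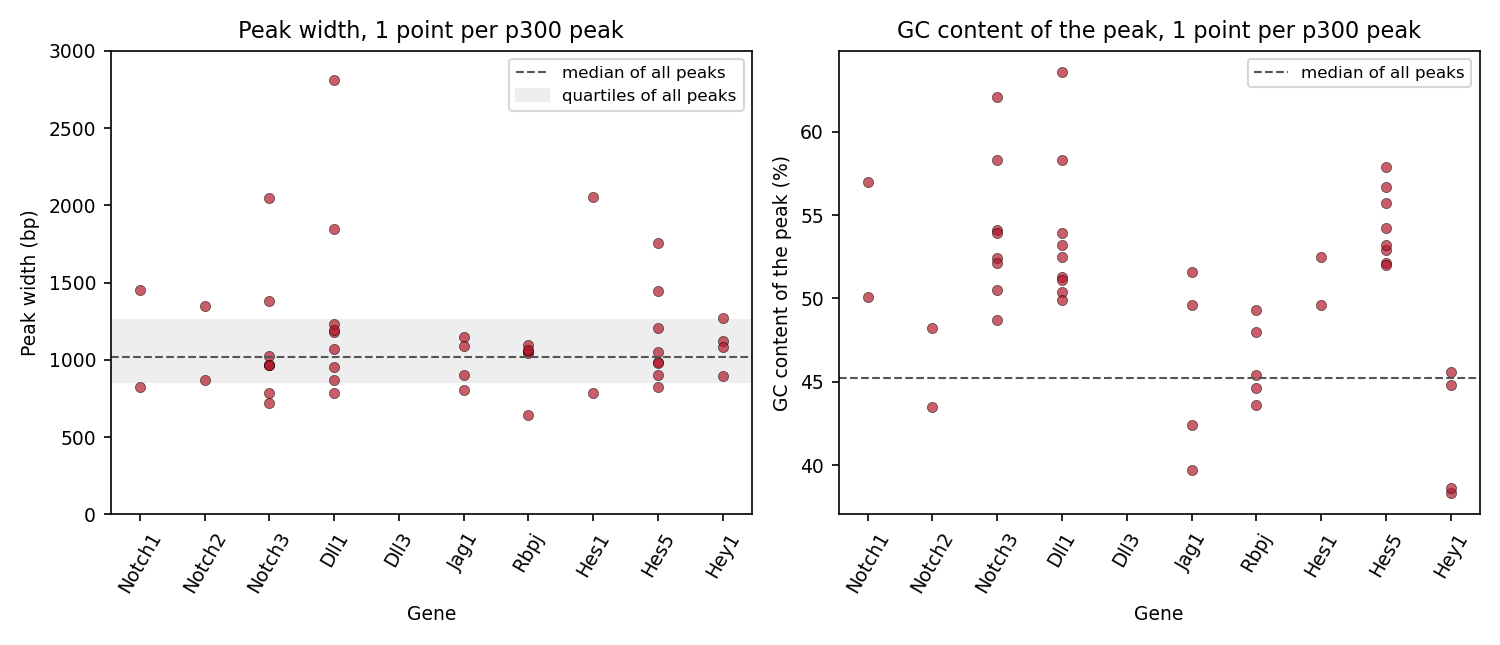
Each point is a p300 peak of a Notch pathway gene, by its width in bp (left) and its GC content in % (right). Widths scatter around the median of all peaks (1017 bp, dashed; quartiles shaded), with the 2810 bp peak of Dll1 at the top, while 36 of 44 GC values lie above the median of all peaks (45.2%).

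The sequence GTGGGAA, bound by RBPJ, occurred in 13 of the 44 peaks (29.5%, 95% interval 16.8 to 45.2 by the exact Clopper-Pearson method) against 22.6% of all 6629. Such intervals cover counting error only, and 8 motifs were searched without adjustment. In the middle 500 bp, where peaks are of like length, the shares were 20.5% (9.8 to 35.3) and 11.0%, so that a difference was not detectable with 44 peaks. Of the 8 peaks nearest to a gene of the list, those of Notch3 and Hes5 and a pair of Dll1 held the match, and the peaks of Jag1 did not. These 5 matches are shown in 30 bases each, written on the strand of the match, since they lie in the peaks that no other protein-coding gene is nearer to. Capitals mark the match.
Notch3, intron 2, chr17:32299245-32299274, 67 bp from the peak's midpoint: gaggtgcagagcGTGGGAAcccgcccgcgg
Dll1, 4.89 kb upstream peak, chr17:15517960-15517989, 142 bp from its midpoint: gtgaggggtttGTGGGAAgaaggctctaac
Dll1, 32.7 kb downstream peak, chr17:15480426-15480455, 188 bp from its midpoint: gaggacagcaccGTGGGAAcaggcagggca
Hes5, 12.0 kb upstream peak, chr4:154322882-154322911, 121 bp from its midpoint: tatgtggggctGTGGGAAagtccccgggcc
Hes5, the same peak, chr4:154323358-154323387, 355 bp from its midpoint: tctggttttctgGTGGGAAcattcgcatgg
The most matches in 1 peak, 3, were in number 3577, the one inside 2210009G21Rik given to Jag1. A match is a description of the letters and not a measured site of binding.

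Of the other motifs, the E-box CAGCTG was in 65.9% of the 44 peaks (50.1 to 79.5, exact 95% interval) and 56.3% of all peaks, and CATCTG in 72.7% (57.2 to 85.0) and 74.8%. In the middle 500 bp CATCTG stood in 38.6% (24.4 to 54.5) and in 57.4% of all peaks, a share above that interval. The interval covers counting error only and is not adjusted for the 8 motifs. The Dll1 peak next to the start site had 4 CAGCTG and 6 CATCTG matches, the most CATCTG of any of the 44 peaks. At 2810 bp it was also the widest of them, and the part of its width in these counts was not tested. TAATTA was in 38.6% and 46.7%, and AACAATG in 3 peaks (6.82%, 1.43 to 18.7) against 19.4% of all. In the middle 500 bp the shares of AACAATG were 4.55% (0.555 to 15.5) and 9.64%, and a difference was not detectable. The site CACGCG was in 6 peaks (13.6%, 5.17 to 27.4) against 6.29% of all, and in the middle 500 bp in 5 peaks (11.4%, 3.79 to 24.6) against 3.21%. The share of all peaks lay inside the first interval and just below the second, which is likewise unadjusted. The 6 peaks with CACGCG were the intron peak of Notch3 and its peak near Cryaa, the intron peak of Jag1, and 3 peaks of Dll1. The next-door peak of Dll1 had 4 of the 11 matches, of which a pair overlap. CACGTG was in 5 peaks (11.4%, against 13.6% of all), and in the middle 500 bp it was in 0 of them, which allows up to 8.04%, and in 6.92% of all. The Nfi palindrome was in 0 of 44 peaks, which allows a share of up to 8.04% by the exact interval, and in 0.362% of all. The higher GC content of the 44 peaks stands beside all of these shares, and its part in them was not tested.

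**Figure D5:**
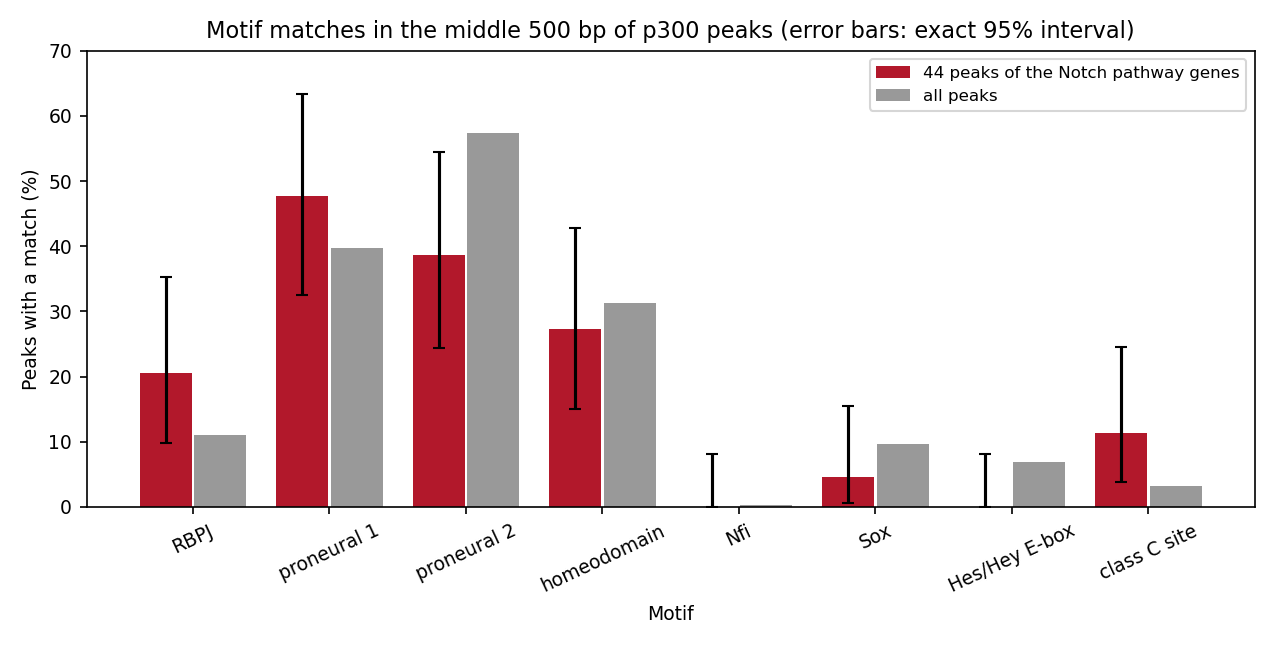
Bars give the share of p300 peaks (%) with at least 1 match to each motif in the middle 500 bp, for the 44 peaks of the Notch pathway genes (red, with exact 95% intervals) and all 6629 peaks (grey). Proneural 1 is CAGCTG and proneural 2 is CATCTG, where 38.6% and 57.4% stand side by side. RBPJ stands at 20.5% and 11.0%.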

How the data were processed

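The deposited file lists 6629 p300 peaks by chromosome, start, end and name. To make it, the authors aligned reads to mm9 with ELAND and kept unique alignments. Peaks were called with the input as control in MACS, given as 1.4 by the submitters' processing notes. The deposited list is of distal peaks: the authors left out promoters (to 2.5 kb on either side of a start), exonic sequence and regions of doubtful mapping. The deposited values are positions in bases, with no read count or score per peak, so the depth behind a peak is unknown. No file of the input library was used here. Positions were compared with the NCBIM37 sequence, the same assembly, and GENCODE vM1. All peaks lay within its chromosomes. Scripts ran in Python 3.11.15 (pandas 2.3.3, numpy 2.4.6, pysam 0.24.0, scipy 1.17.1), with matplotlib 3.10.9 for figures.

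The number of peaks in a window or regulatory domain (extended by up to 1 Mb) was compared with that region's share of assembled bases by a one-sided exact binomial test for each of 22367 protein-coding genes, with Benjamini-Hochberg adjustment. All members were named. Of the other pathway genes, those past the test and the 5 with the most peaks were named, with ties. The genes, lists and motifs were chosen with earlier results of these data known. Alternatives were other distances, start sites, peak sets, backgrounds and gene sets. Leaving out model and clone names was added after the data were seen. The scripts were tested on simulated data. Some items are not reported here.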

Additional observations from a re-analysis of the deposited data

How the results depend on the processing

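There is 1 library, so no replicate could be left out. No paired analysis was possible because the p300 and input groups have 1 library each and no file of the input was used. The 44 peaks fell to 20 within 250 kb and to 25 when peaks narrower than the median were set aside. Of 22367 protein-coding genes, 914 passed the window test. The number was 466 at 250 kb, 1537 at 1 Mb, 516 with near peaks joined and 459 with wide peaks alone. Tested over all 37273 annotated genes, non-coding ones included, it was 1573, a count with a larger base. Of the 10 genes, 0 passed at 1 Mb or with wide peaks alone, and 0 passed on domains bounded by all annotated genes, where that of Dll1 is shorter. For the losses at 1 Mb and with wide peaks the cause was not tested. At 250 kb the ratio of Notch3 and that of Hes5 fell below 1, to 0.772 each, and with wide peaks alone those of Hes2 and Hes3 fell to 0.77 each. Hes2 and Hes3 also lost their calls at 250 kb and against the density of their own chromosome, and Hes2 with near peaks joined. Peaks nearest to a member at any distance numbered 9, and 4 when start sites of all annotated genes were used, with 1 in place of 4 for Dll1. In the middle 500 bp, a shorter stretch than the whole peaks, CAGCTG was in 47.7%, CATCTG in 38.6% and CACGTG in 0% of the 44 peaks. Over all peaks the shares fell too, from 56.3% to 39.7%, from 74.8% to 57.4% and from 13.6% to 6.92%. The part of the shorter stretch in the falls was not tested. Of the totals, counts of calls, shares and medians, 23 values under an alternative stayed within 1.5 times, or within the interval, of those reported. Of the values of single genes, 110 kept their call or stayed within that range, 24 moved further, 7 lost a call and 4 changed direction. Among those that moved, Jag1 had 8 peaks and Hey1 9 within 1 Mb, and on domains bounded by all annotated genes Jag1 had 3 peaks and Hey1, Rbpj and Notch1 0 each. The list gives no read depth, which limits what can be said of any single peak.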
